A study of Mus musculus with 2 samples.

Results

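The miR-99, miR-100 and miR-125 families are small groups of paralogous microRNAs that lie in vertebrate genomes beside genes of the let-7 family. The microRNA genes Mir99a, Mir99b, Mir100, Mir125a, Mir125b-1 and Mir125b-2 were taken by symbol from the gene table, and all 6 were found among its 2202 microRNA genes. Their abundance was measured by small RNA sequencing of total RNA from left cerebral cortex tissue, in 2 replicate libraries of 1 group. The labels give B6CASTF1/J males, 14 days old, as the source, F1 offspring of the strains C57BL/6 and CAST/Ei, and name neither a treatment nor an engineered allele. Both libraries carry 1 donor label and separate tissue records, and the labels do not say whether separate animals were used, so an SD over them is the spread of these samples and may be technical.

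A microRNA is cut from a hairpin transcript and pairs with messenger RNAs mainly through its seed, bases 2 to 8 counted from its 5′ end, which lowers the output of those messages. miR-125 is the vertebrate counterpart of lin-4 of the worm Caenorhabditis elegans, which acts with let-7 in the timing of development. In mouse cells miR-125 and let-7 both repress Lin28a, whose protein in turn blocks the maturation of let-7. miR-99 and miR-100 are known mainly as repressors of Mtor, the growth kinase gene, and miR-125b is known in mouse hippocampal neurons for effects on dendritic spines.

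The 5′-arm sequences are shown because they place the genes in 2 seed groups and show which of them can be told apart by a read. Sequences are those of RefSeq on build GRCm38.p6, with the seed in capitals, and all 6 genes matched. The miR-99/100 group shares the seed ACCCGUA.
miR-99a-5p: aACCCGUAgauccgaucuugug
miR-100-5p: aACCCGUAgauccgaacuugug
miR-99b-5p: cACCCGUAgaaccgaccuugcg
The miR-125 group shares the seed CCCUGAG.
miR-125a-5p: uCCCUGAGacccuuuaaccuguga
miR-125b-5p: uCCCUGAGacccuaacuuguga

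With positions counted from 1 at the 5′ end and the first-named sequence's base first, miR-99a-5p and miR-100-5p differed at 1 of 22 positions, U16A. miR-99a-5p and miR-99b-5p differed at 4 positions, A1C, U11A, U16C and U21C. miR-125a-5p, at 24 bases, and miR-125b-5p, at 22, shared their first 13 bases as the longest common run. One mature sequence, miR-125b-5p, comes from both Mir125b-1 and Mir125b-2, whereas each of the others listed was found exactly in 1 of the 2202 hairpins. Matches elsewhere in the genome were not searched. A read that lies inside miR-125b-5p matches both genes, and reads that matched several genomic positions were given to no gene. The 3′-arm sequences of the pair, which are not shared, differed at 5 of 22 positions.
miR-125b-1-3p: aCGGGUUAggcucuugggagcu
miR-125b-2-3p: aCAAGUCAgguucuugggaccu
Counts of Mir125b-1 and Mir125b-2 are therefore uncertain and can be too low, and how many reads each lost was not tested.

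The 6 genes lie in 3 clusters on the plus strand of mm10, each in the order miR-99/100-type gene, let-7 gene, miR-125-type gene. On chromosome 16 Mir99a (ENSMUSG00000065530.1; 77598936 to 77599000) is followed by Mirlet7c-1 after 656 bases and by Mir125b-2 (ENSMUSG00000065472.1; 77646273 to 77646343) a further 46.5 kb away. All 3 lie in introns of Mir99ahg, a non-coding host gene, and the hairpin of Mir125b-2 also overlaps an exon of C130023A14Rik. On chromosome 17 Mir99b (ENSMUSG00000065396.1; 17830188 to 17830257), Mirlet7e and Mir125a (ENSMUSG00000065479.2; 17830812 to 17830879) lie within a span of 692 bases inside Spaca6, a protein-coding gene needed for fertilization. Mir99b and Mirlet7e are intronic there, and Mir125a overlaps an exon of 1 of the 3 Spaca6 transcripts that span it. On chromosome 9 Mir100 (ENSMUSG00000093011.1; 41531425 to 41531504) is followed by Mirlet7a-2 after 5.21 kb and by Mir125b-1 (ENSMUSG00000093354.1; 41581926 to 41582002) a further 45.1 kb away. These 3 lie in introns of the non-coding genes 3110039I08Rik and Gm49317. Mir100 also overlaps an exon of Gm48742 on the opposite strand, and Mir125b-1 an exon of Gm28119 on its own strand.

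Replicate 1 held 4111167 counts on the strand of microRNA genes and replicate 2 held 3189903, of 11224232 and 8758378 reads. Of the reads 39.1% in replicate 1 and 41.4% in replicate 2 matched several positions. Of the 13 neuronal microRNA genes used to check the tissue label, 9 were detected, meaning at least 10 counts in each library, and the list summed to 149768 CPM (replicate 1) and 139377 CPM (replicate 2). CPM here is a gene's counts scaled to equal library totals of 1e6 counts in microRNA genes. The neuronal list was chosen with earlier results known and includes Mir139, the most abundant gene of the data. Its sum therefore does not show that neuronal genes in general were high. Of 5 muscle genes, Mir1a-1, Mir1a-2, Mir133a-1 and Mir133a-2 had 0 counts, and the list summed to 20.7 and 23.8 CPM. Those 4 have near-identical copies, so their 0 counts set no limit. Liver-specific Mir122 stood at 51.8 and 48.0 CPM, the single endothelial gene Mir126a at 10449 and 13176 CPM, the oligodendrocyte list of 3 at 2864 and 2531 CPM, and the microglia and leukocyte list of 4 at 6833 and 9161 CPM. In bulk tissue, more cells of a type and more RNA per cell cannot be told apart.

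Together the 6 genes held 4.08% ± 0.379 of the counts (SD, n = 2). Their share was 3.82% in replicate 1 (exact Clopper-Pearson 95% interval 3.80 to 3.83%) and 4.35% in replicate 2 (4.33 to 4.37%). The interval covers counting error only and is far narrower than the gap between the libraries. The miR-99/100-type genes held 2.72% ± 0.501 of the counts, and the miR-125-type genes held 1.36% ± 0.123. The miR-125-type sum lacks any read that matched both Mir125b genes, so against the miR-99/100-type genes it can be too low. All of these shares are of reads that were given to a gene. All 6 were detected, and the level of each on the mean of the libraries was above the median of the 406 detected genes, 129 CPM.

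In the miR-99/100 group, Mir99a led. It had 55771 counts in replicate 1 and 65864 in replicate 2, which is 13566 CPM and 20648 CPM, and ranked 14th of the detected genes by mean. Mir99b, which carries the same seed from the Spaca6 locus, had 6687 CPM in replicate 1 and 4619 CPM in replicate 2, ranking 34th. Mir100, whose mature 5′ arm is 1 base away from that of miR-99a, had 3426 CPM in replicate 1 and 5503 CPM in replicate 2, ranking 42nd. Mir99a was the highest of the 3 in both libraries, while Mir99b and Mir100 changed places: Mir99b stood above Mir100 in replicate 1 and below it in replicate 2.

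In the miR-125 group, Mir125a led in counted reads. It had 51631 counts in replicate 1 and 34765 in replicate 2, which is 12559 and 10899 CPM, and ranked 22nd. Mir125b-1 had 1572 CPM in replicate 1 and 1425 CPM in replicate 2, from 6461 and 4546 counts. Mir125b-2 was the lowest of the 6, with 1436 counts in replicate 1 and 1345 in replicate 2, which is 349 and 422 CPM, and ranked 151st. The ranges of these 3 genes over the libraries did not overlap. Counts of the Mir125b pair summed to 1884 ± 52.4 CPM (SD, n = 2), from which any read that matched both genes is missing.

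By mean level the order was Mir99a at 17107 ± 5008 CPM, Mir125a at 11729 ± 1174 CPM, Mir99b at 5653 ± 1462 CPM, Mir100 at 4464 ± 1469 CPM, Mir125b-1 at 1498 ± 104 CPM and Mir125b-2 at 385 ± 51.2 CPM (SD, n = 2 each). Of the 5 pairs of neighbours in this order, only the ranges of Mir99b and Mir100 overlapped. The places of Mir125b-1 and Mir125b-2 are those of counted reads and are uncertain, since reads that matched both are missing. Mir99a and Mir125a were close in replicate 1, where Mir99a was 1.08 times as high, and apart in replicate 2, where it was 1.89 times as high. A small RNA read covers a mature arm rather than the hairpin, so CPM was not divided by length. Per base of hairpin, of 65 to 80 bases, the mean levels kept this order, at 263, 172, 80.8, 55.8, 19.5 and 5.43 CPM per base. A hairpin's count does not separate its 5′ and 3′ arms.

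**Figure D1:**
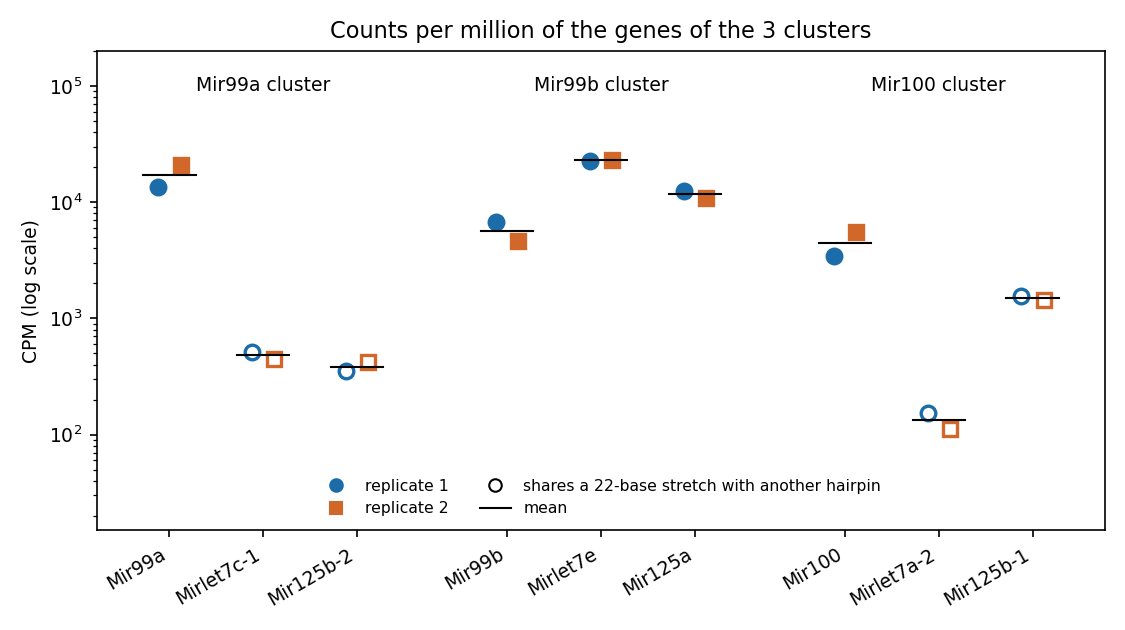
CPM on a log scale for the 9 genes of the 3 clusters, with circles for replicate 1, squares for replicate 2 and a line at the mean. Open symbols mark the 4 genes that share a 22-base stretch with another hairpin: they lie between 111 and 1572 CPM, and the 5 with filled symbols between 3426 and 23211 CPM.

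The clusters differed in size and in which gene held their counts. The Mir99b cluster was the most abundant, with 41971 CPM in replicate 1 and 38729 CPM in replicate 2 over its 3 genes. The Mir99a cluster had 14432 and 21514 CPM, and the Mir100 cluster 5152 and 7039 CPM. The ranges of the 3 clusters did not overlap. Reads of Mir125b-2, Mirlet7c-1, Mir125b-1 and Mirlet7a-2 that matched several positions are missing from these sums. Totals of the Mir99a and Mir100 clusters can therefore be too low, and the order is that of counted reads. In counted reads, the Mir99b cluster stood above the Mir99a cluster in both libraries only with the let-7 genes included. With the let-7 genes left out, the 2 remaining genes summed to 17382 ± 2636 CPM in the Mir99b cluster (SD, n = 2). They summed to 17492 ± 5059 CPM in the Mir99a cluster (SD, n = 2), and the ranges overlapped. By this sum the Mir99b cluster was higher in replicate 1 (19246 against 13915 CPM) and lower in replicate 2 (15518 against 21069 CPM).

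In the Mir99a cluster, Mir99a held 94.0% of the counts in replicate 1 and 96.0% in replicate 2. Mir125b-2 held 2.42% and 1.96% there. In the Mir100 cluster, Mir100 held 66.5% in replicate 1 and 78.2% in replicate 2, and Mir125b-1 held 30.5% and 20.2%. In the Mir99b cluster the let-7 gene led instead: Mirlet7e held 54.1% in replicate 1 and 59.9% in replicate 2, Mir125a 29.9% and 28.1%, and Mir99b 15.9% and 11.9%. In counted reads of both libraries, the miR-99/100-type gene was therefore above the miR-125-type gene in the clusters on chromosomes 16 and 9. In the cluster on chromosome 17 it was below. Reads of Mirlet7c-1, Mirlet7a-2 and the Mir125b pair that matched several positions are missing. The percents and the order on chromosomes 16 and 9 are therefore uncertain.

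**Figure D2:**
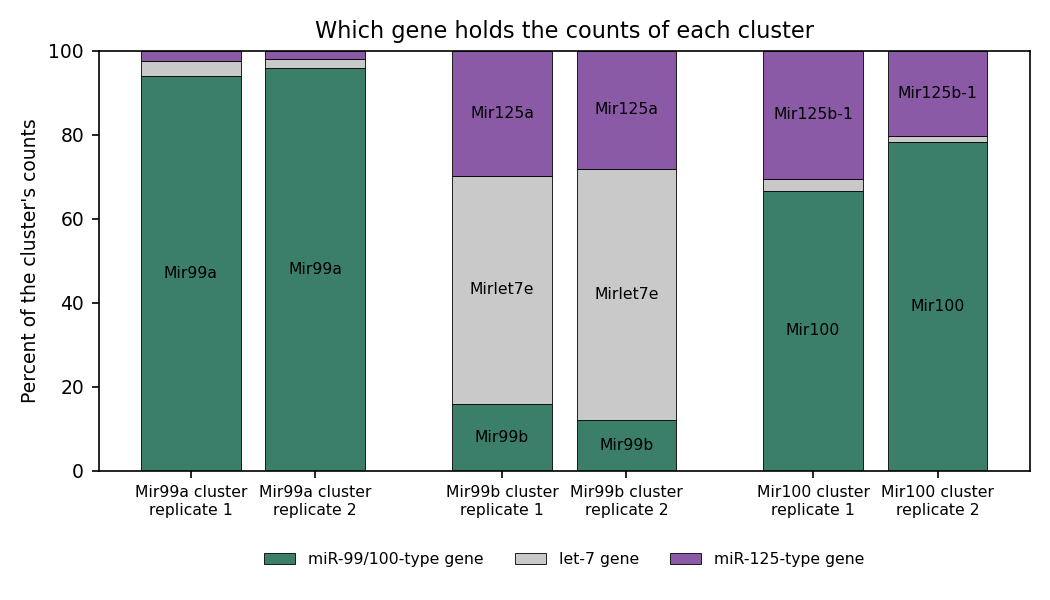
Stacked bars give each gene's percent of the counts of its cluster, for replicate 1 and replicate 2 of each cluster. In counted reads Mir99a and Mir100 fill most of their clusters, at 94.0 and 96.0% and at 66.5 and 78.2%. Mirlet7e fills 54.1 and 59.9% of the Mir99b cluster. Percents of Mir99a and Mir100 can be too high, since reads of the other genes of their clusters that matched several positions are missing.

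The let-7 genes of the clusters were far apart in level. Mirlet7e had 22725 CPM in replicate 1 and 23211 CPM in replicate 2, against 517 and 445 CPM for Mirlet7c-1 and 155 and 111 CPM for Mirlet7a-2. The counts of Mirlet7c-1 and Mirlet7a-2 carry the same limit as the Mir125b pair. The longest stretch shared with a non-overlapping hairpin was 23 bases for Mirlet7c-1 (with Mirlet7c-2) and 23 for Mirlet7a-2 (with Mirlet7a-1), but 17 for Mirlet7e. Among the 6 genes it was at least 22 for the Mir125b pair, the length of miR-125b-5p, 16 for Mir99a and Mir100 with each other, 14 for Mir125a and 11 for Mir99b. The 4 of the 9 cluster genes with a shared stretch of at least 22 bases lay between 111 and 1572 CPM, and the other 5 lay between 3426 and 23211 CPM, with no overlap. Over the whole table, 69 of the 1023 genes with such a stretch were detected (6.74%), at a median of 106 CPM, against 337 of the 1179 genes without one (28.6%), at a median of 135 CPM. This grouping was chosen after the counts were seen. The part of shared sequence in the levels of the 4 genes was not tested. The composition and the totals of the Mir99a and Mir100 clusters are therefore uncertain.

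Within the clusters Mir99a was 38.8 and 49.0 times as high as Mir125b-2, Mir100 was 2.18 and 3.86 times as high as Mir125b-1, and Mir99b was 0.532 and 0.424 times as high as Mir125a, in replicates 1 and 2. The first 2 of these ratios have a Mir125b gene below the line, so both can be too high. Mir99b over Mir125a, whose genes share no stretch above 14 bases with another hairpin, averaged -1.07 ± 0.23 on the log2 scale (SD, n = 2). Whether reads of Mir99b or Mir125a match positions outside the annotated hairpins was not tested. Between paralogs, Mir99a over Mir100 was nearly the same in both libraries, 3.96 and 3.75 times (log2 ratio 1.95 ± 0.06). Mir125a over Mir125b-1 was 7.99 and 7.65 times (log2 ratio 2.97 ± 0.04). Ratios to Mir99b varied more: Mir99a over Mir99b was 2.03 times in replicate 1 and 4.47 times in replicate 2 (log2 ratio 1.59 ± 0.81), and Mir99b over Mir100 was 1.95 and 0.839 times (log2 ratio 0.36 ± 0.86), so its direction differed between the libraries. Mir125b-1 over Mir125b-2 was 4.50 and 3.38 times, and Mir125a over Mir125b-2 was 36.0 and 25.8 times. The ratios of Mir125a to Mir125b-1 and to Mir125b-2 can also be too high, and Mir125b-1 over Mir125b-2 is uncertain. With 2 libraries an exact two-sided sign-flip test of such a ratio cannot go below p = 0.5, and no test of the ratios is given.

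**Figure D3:**
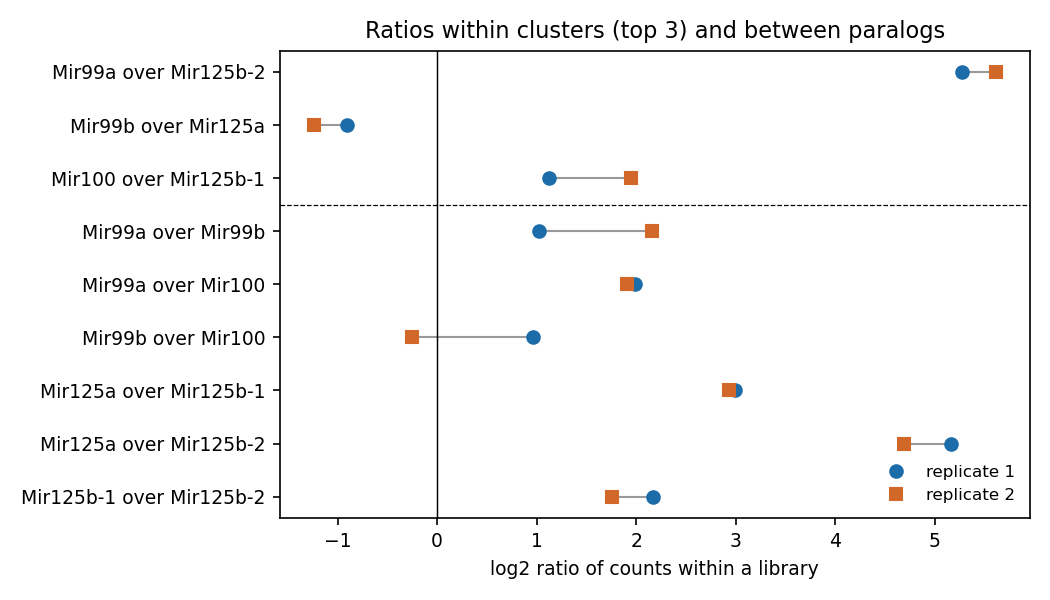
The log2 ratio of counts between genes within each library, with circles for replicate 1 and squares for replicate 2, for the pairs inside a cluster above the dashed line and for paralogs below it. Mir99a over Mir100 (3.96 and 3.75 times) and Mir125a over Mir125b-1 (7.99 and 7.65 times) hardly move between libraries. Mir99b over Mir100 lies on both sides of 0. Ratios of another gene to a Mir125b gene can be too high, since reads that matched both Mir125b genes are missing.

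For each detected gene, the part of its counts that fell in replicate 1 was then compared with that library's part of all counts. This exact binomial test compares 2 libraries on read sampling alone and makes no statement about conditions. By it 58.1% of the 406 detected genes differed past an adjusted p of 0.05, so the count of 6 of the 6 genes is read against a high background. Of the 6, 3 were higher in replicate 1 (34.7% of detected genes were) and 3 lower (23.4%), and none was 2-fold apart, against 9.61% of detected genes. The median absolute log2 ratio of the 6 genes was 0.40, against 0.29 over all detected genes, whose middle 50% lay between 0.13 and 0.59. These backgrounds are not matched for level: they include genes from 10 counts up, while the 6 had at least 1345. With a minimum of 50 counts, 74.6% of 291 genes were called.

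Lower in replicate 1 were Mir100 (log2 ratio of replicate 1 over replicate 2 of -0.68), Mir99a (-0.61) and Mir125b-2 (-0.27; adjusted p = 1.84e-06, exact binomial test with Benjamini-Hochberg adjustment). Higher in replicate 1 were Mir99b (0.53; adjusted p = 2.07e-295, same exact test), Mir125a (0.20; adjusted p = 1.22e-92, exact test) and Mir125b-1 (0.14; adjusted p = 1.06e-06, exact test). The adjusted p of Mir99a and of Mir100 was below that of Mir99b. Within each cluster, the counted genes did not all differ in the same direction between these 2 libraries. Mir99b and Mir125a were higher in replicate 1 while Mirlet7e between them was lower (log2 ratio -0.03; adjusted p = 3.92e-05, exact test). Mir99a and Mir125b-2 were lower while Mirlet7c-1 was higher (0.22; adjusted p = 2.66e-05, exact test). Mir100 was lower, while Mirlet7a-2 (0.48, adjusted p = 1.04e-06, exact test) and Mir125b-1 were higher. The difference of Mirlet7e was only 1.02-fold. Counts of Mirlet7c-1, Mirlet7a-2 and the Mir125b pair lack reads that matched several positions. Whether the genes of a cluster vary together was therefore not tested. With DESeq2 size factors, which move every log2 ratio by -0.08, Mir125b-1 did not pass (log2 ratio 0.06, adjusted p = 0.0638, exact test). Under TMM library sizes Mir125b-1 only just passed (adjusted p = 0.0499, exact test). Without molecular identifiers several reads can come from 1 molecule, so these p-values can be too small.

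**Figure D4:**
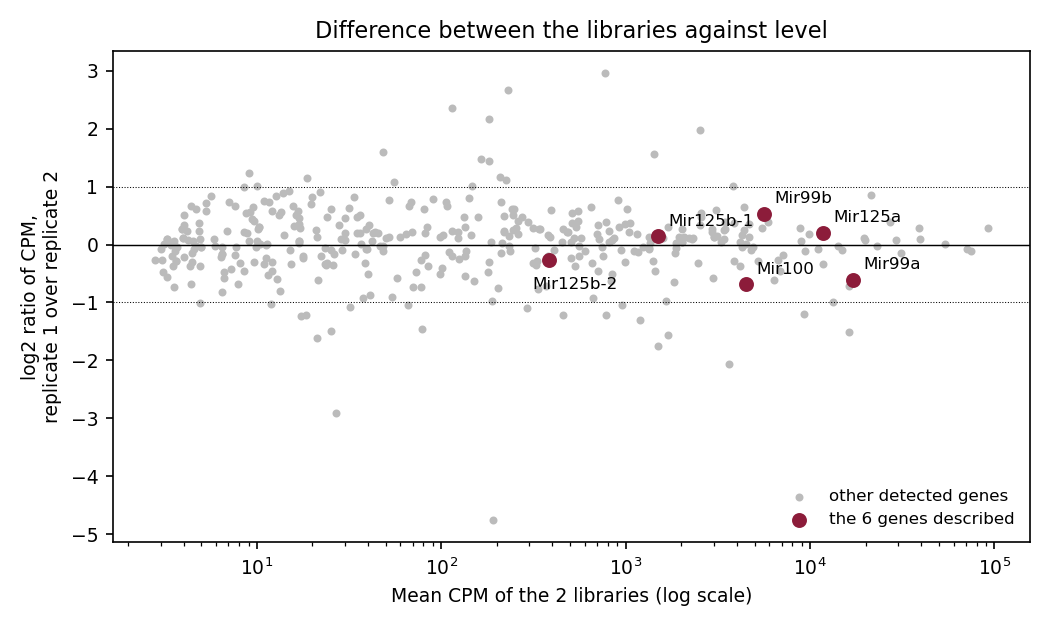
The log2 ratio of CPM in replicate 1 over replicate 2 against mean CPM on a log scale, with the 6 genes in red, the other detected genes in grey and dotted lines at 2-fold. All 6 lie inside the dotted lines, with Mir99b, Mir125a and Mir125b-1 above 0 and Mir99a, Mir100 and Mir125b-2 below.

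For each gene the 2 detected genes nearest in log2(CPM + 1) over the 2 libraries were listed, as a description of level over 2 points. Nearest to Mir99a was Mir132, an activity-induced neuronal microRNA (12230 and 20125 CPM, a distance of 0.15), then Mir23b (0.44). Mir99b lay nearest to Mir23a (0.16) and Mir409 (0.18), and Mir100 to Mir30a (0.24) and Mir378a (0.38). Mir125a lay nearest to Mir652 (0.07) and Mir541 (0.23). Mir125b-1 lay nearest to Mir154 (0.04) and to Mir219a-2 (0.05), a microRNA of oligodendrocytes, and Mir125b-2 to Mirlet7a-1 (0.06) and Mir488 (0.18).

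Counts on the opposite strand were 0 in both libraries for all 6 genes, and ignoring strand left each of their counts as it was. The exception inside the clusters was Mirlet7e: Gm25927, a microRNA gene annotated over it on the opposite strand, had 0 counts, yet the overlap took all of the Mirlet7e counts away when strand was ignored. The Mir99b cluster then fell to 18662 CPM.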

How the data were processed

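Small RNA libraries of 2 replicates of left cerebral cortex were used. The authors deposited unnormalized counts of reads for each microRNA gene, in 3 columns (strand ignored, strand of the gene, opposite strand) below 4 rows for reads in no gene. Per the file descriptions deposited beside them, the build is mm10 and the annotation GENCODE M21. Neither aligner nor counter is given in the sources used here. All 2202 gene IDs, version included, matched GENCODE M21, which gave symbols, positions, hosts and hairpins.

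Same-strand counts were scaled to CPM by their sum over genes. A gene with 10 counts or more in both libraries was called detected. Log2 ratios used a pseudocount of 1. The two-sided exact binomial test ran over all detected genes with Benjamini-Hochberg adjustment (threshold 0.05), in Python 3.11.15 with scipy 1.17.1. It was also run on simulated counts in which read sampling was the only noise. That run does not show that its p-values hold for these libraries. Alternatives were counts ignoring strand, edgeR 4.0.16 TMM and DESeq2 1.42.0 size factors, other totals, count minimums, thresholds and pseudocounts, and each library alone.

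The genes, lists and tests were chosen with earlier results of these data known. The rule named the 6, the let-7 genes of their clusters, the 2 nearest genes to each, and Mir10a and Mir10b. Named besides were genes of the tissue-check lists, Mir139 as the most abundant gene, and the 3 leading other let-7 genes, chosen after their values were seen. Intervals cover counting error only.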

Additional observations from a re-analysis of the deposited data

Results flagged for a closer look

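Reads that matched several genomic positions lie outside the counts described above. In replicate 1 they were 39.1% of all reads and in replicate 2 they were 41.4%, or 1.07 and 1.14 times the reads counted in microRNA genes. Which microRNAs they hold, miR-125b-5p among them, was not analysed here.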

How the results depend on the processing

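Of 102 values recomputed under alternatives with both libraries kept, 96 stayed within the tolerance (1 SD for levels, shares and ratios, 1.5 times for counts, and the same side of the threshold for tested genes), and none changed direction. Some of the 96 could not move, so their number overstates what was tested. Ratios between the 6 genes stay the same when strand is ignored, because their counts do. The pseudocount changes neither the exact test nor the direction of a log2 ratio. Ignoring strand gave 1609 CPM for Mir125b-1, since the total then falls, and 18662 CPM for the Mir99b cluster, which loses Mirlet7e. The share of the 6 genes was 1.49% of all reads, and 4.50% with Mir139, the most abundant gene, left out of the totals. With a 2-fold difference in place of the exact test, 0 of the 6 genes were called. Mir125b-1 lost its call with DESeq2 size factors, which left 5 genes called against a background of 54.2%. With TMM library sizes Mir125b-1 only just passed (log2 ratio 0.06, adjusted p = 0.0499, exact test). TMM and DESeq2 library sizes moved every log2 ratio by -0.08, and the split of all called genes became 110 higher and 111 lower in replicate 1 with TMM, against 141 and 95. With no count minimum 31% of 781 genes were called, and with a minimum of 50 counts 74.6% of 291. Leaving out a library gives that of the other, and with 2 libraries no value can move past its SD, so this says nothing about stability. Mir99b over Mir100 changed direction there, with log2 ratios of 0.97 in replicate 1 and -0.25 in replicate 2. No paired analysis was possible because there is 1 group. Depth did not limit the 6 genes, whose lowest count was 1345. How many reads the Mir125b pair lost to several matches was not tested.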

Other observations

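The miR-10 genes, of the Hox gene clusters, are close relatives of miR-99 and miR-100. The longest run shared by miR-99a-5p and miR-10a-5p was 10 bases, and the seed of the miR-10 sequences is ACCCUGU.
miR-10a-5p: uACCCUGUagauccgaauuugug
miR-10b-5p: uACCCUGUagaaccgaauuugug
Mir10b had 105 and 158 counts in replicates 1 and 2 (25.5 and 49.5 CPM), ranking 255th of the 406 detected genes, and Mir10a had 7 and 22 counts (1.70 and 6.90 CPM) and was not detected. Mir100, the lowest of the miR-99/100-type genes by mean, averaged 4464 CPM, against 37.5 CPM for Mir10b.

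The 11 genes whose symbols begin with Mirlet7 were all detected, with 25.6% ± 0.600 of all counts (SD, n = 2). Of this, the 3 in the clusters described here held 2.36 ± 0.0262 percentage points. Mirlet7e made up nearly all of that, at 2.30% of the counts. The other 8 lie outside these clusters, and Mirlet7g (74187 ± 4031 CPM), Mirlet7i (70793 ± 2428 CPM) and Mirlet7b (53748 ± 106 CPM) led them. These shares and this order are of counted reads only. Mirlet7c-1 shares 23 bases with Mirlet7c-2, and Mirlet7a-2 shares 23 with Mirlet7a-1. Reads inside such a stretch were given to no gene, so low counts of these genes do not show that let-7c or let-7a was scarce.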
